A study of Homo sapiens with 18 samples.

Results

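The enzymes that build nucleotides and move single carbon units were followed here as a set of 36 genes, chosen by symbol for their known function and not by their measured values. The deposited table holds 8996 genes and contained 34 of them: all 14 purine genes, 11 of 12 pyrimidine genes, 4 of 5 folate genes and all 5 genes of methionine and S-adenosylmethionine (SAM) metabolism. DCK, a deoxynucleoside kinase, and SHMT1, the cytosolic serine hydroxymethyltransferase, were absent from the table. RNA turnover was measured by SLAM-seq in wild-type HEK293T cells, a human embryonic kidney line. In this assay cells take up 4-thiouridine (s4U), and alkylation turns the label into T-to-C conversions that mark newly made RNA in 3′-end reads. Cells were given STM2457, a small-molecule inhibitor of the m6A methyltransferase METTL3, or its solvent DMSO for 3 h. They then received 100 µM s4U for 90 min, for 180 min or not at all, with 3 samples in each of the 6 combinations, 9 per treatment and 18 in all. A single transformed cell line is the only model, and the labels do not say whether samples of a group came from separate cultures. Of 6 markers known in these cells, NEFL, NEFM and INA were in the table. Of 13 markers of other cell types, only COL1A1 and CDX2 were in it.

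The table gives each gene 1 fitted half-life and 1 fitted synthesis rate per treatment. It holds no value for a single sample, no interval and no read count, so the spread between replicates and the depth are unknown and no test could be made. Every difference given here is a difference between 1 fitted value and another. A gene is called longer-lived or shorter-lived where its half-life in STM2457 was at least 1.5-fold above or below that in DMSO, a log2 ratio beyond 0.585. Half-lives are in hours, a unit inferred from the values, and they end at a ceiling of 69.3 h. The unit of the synthesis rate is not named, so synthesis was compared only within a gene.

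De novo purine synthesis assembles the purine ring on ribose phosphate to give IMP, which is then converted to AMP or GMP, while salvage enzymes reuse free bases. De novo pyrimidine synthesis makes UMP, the source of CTP and, through deoxyuridine nucleotides, of thymidylate. Folate carries the single carbon units that both routes and methionine synthesis need. Methionine is turned into SAM, the methyl donor for m6A and most other cellular methylation, and each methyl transfer leaves S-adenosylhomocysteine (SAH). MAT2A, which makes SAM, has an mRNA with its own m6A sites: METTL16, an enzyme distinct from METTL3, methylates hairpins in its 3′ UTR, and its binding there is tied to the splicing and stability of the transcript when SAM is scarce.

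The hairpin motif of METTL16 is shown first because it sets MAT2A apart from the other members. The letters TACAGAGAA or TACAGAAAA were searched on the transcribed strand of 3′ UTRs in GENCODE release 29 (GRCh38). MAT2A (ENSG00000168906.13, chromosome 2, 85539165 to 85545280, plus strand) held 6 matches, all in its last exon, exon 9 of 9. The 21 bases around each match follow, 5′ to 3′, with the motif in capitals.
MAT2A site at chr2:85543806-85543826: gtaggcTACAGAGAAgccttc
MAT2A site at chr2:85544593-85544613: atgtcaTACAGAGAAgtcaca
MAT2A site at chr2:85544778-85544798: tgtagcTACAGAGAAaccagc
MAT2A site at chr2:85544893-85544913: cgtaagTACAGAGAAgccatc
MAT2A site at chr2:85545008-85545028: gtgtccTACAGAAAAaccttg
MAT2A site at chr2:85545116-85545136: gtgtggTACAGAGAAgccagc
The first match began at base 40 of the 1508-base 3′ UTR, and the other 5 lay between bases 827 and 1350. Of the 8527 table genes with a coding transcript in that annotation, 377 (4.42%) held at least 1 match, 18 held exactly 2, and MAT2A alone held more. No other member held one.

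**Figure D1:**
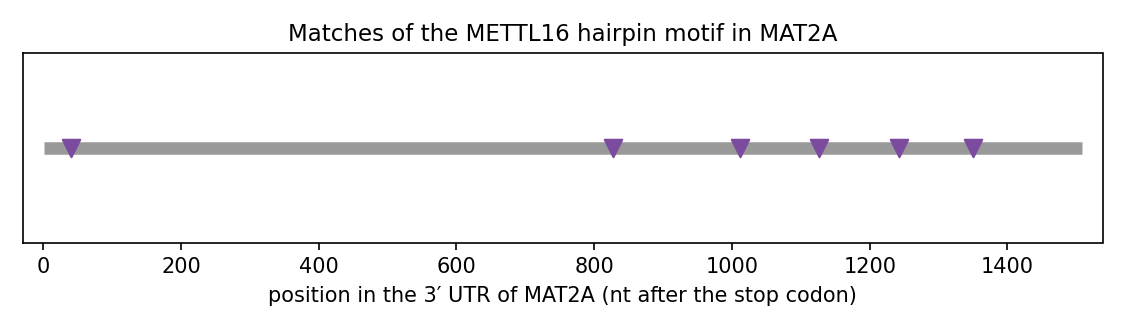
Positions of the 6 hairpin-motif matches (triangles) along the 1508-nt 3′ UTR of MAT2A (grey bar), in nucleotides after the stop codon. One match lies at base 40 and the other 5 between bases 827 and 1350.

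The motif that METTL3 methylates is DRACH (D is A, G or T; R is A or G; H is A, C or T). Methylation is known to be depleted near exon junctions, so motifs whose A lay at least 100 nt from any junction were counted in the coding sequence. A stretch of one coding exon is shown for each of UMPS, PFAS and TK1, members with several such motifs and different outcomes. All are exonic and coding, from GENCODE release 29 (GRCh38), with the distant motifs in capitals.
UMPS, exon 3 of 6, chr3:124738009-124738128, plus strand: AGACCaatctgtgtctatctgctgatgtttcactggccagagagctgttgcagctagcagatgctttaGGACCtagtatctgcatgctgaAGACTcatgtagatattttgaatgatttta
PFAS, exon 28 of 28, chr17:8269197-8269261, plus strand: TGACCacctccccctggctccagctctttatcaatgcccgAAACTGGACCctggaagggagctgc
TK1, exon 6 of 6, chr17:78174811-78174930, minus strand: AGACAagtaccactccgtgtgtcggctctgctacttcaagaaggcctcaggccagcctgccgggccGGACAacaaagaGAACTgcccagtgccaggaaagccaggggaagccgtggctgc
The UMPS stretch holds 3 of that gene's 8 distant motifs, the PFAS stretch 3 of 4 and the TK1 stretch 3 of 3. UMPS had the most distant coding motifs of any member.

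Half-lives of the set were mostly shorter in STM2457 than in DMSO. The ratio was below 1 in 25 of 34 members, above 1 in 8 and equal in 1. Over all genes it was below 1 in 4520 of 8996. By the 1.5-fold rule 15 members (44.1%) were shorter-lived, against 24.9% of all genes in the table, and 4 (11.8%) were longer-lived, against 28.5%. AHCY, NME1 and NME2 had DMSO half-lives too near the 69.3 h ceiling to be called longer-lived. The median member half-life was 9.76 h under DMSO and 5.64 h under STM2457, where the medians over all genes were 5.61 h and 5.39 h. The median log2 half-life ratio was -0.56 for the members and -0.01 for all genes. The members lived longer in DMSO than most genes, with quartiles of 4.93 h and 12.5 h. Among the 3199 genes whose DMSO half-life lay between those quartiles, a comparison added after the values were seen, 35.5% were shorter-lived and 18.7% longer-lived. Their ratio was below 1 in 2084, and the median log2 ratio was -0.32. The members' 44.1% includes members outside those quartiles, so it is not matched to the 35.5%. Inside them PFAS, ADSL, IMPDH2, ADSS, CTPS2, CMPK1, TK1, MTHFD2 and MTHFD1L were shorter-lived and APRT was longer-lived. PRPS2, PAICS, IMPDH1, DTYMK, MTR and AHCYL1, also inside, were within the rule. Whether DMSO stability accounts for the members' share was not tested. IMPDH1 and MTR, both at 1.49-fold shorter, and PRPS2, at 1.47-fold shorter, fell just short of the threshold, and GART, at 1.54-fold, lay just past it.

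**Figure D2:**
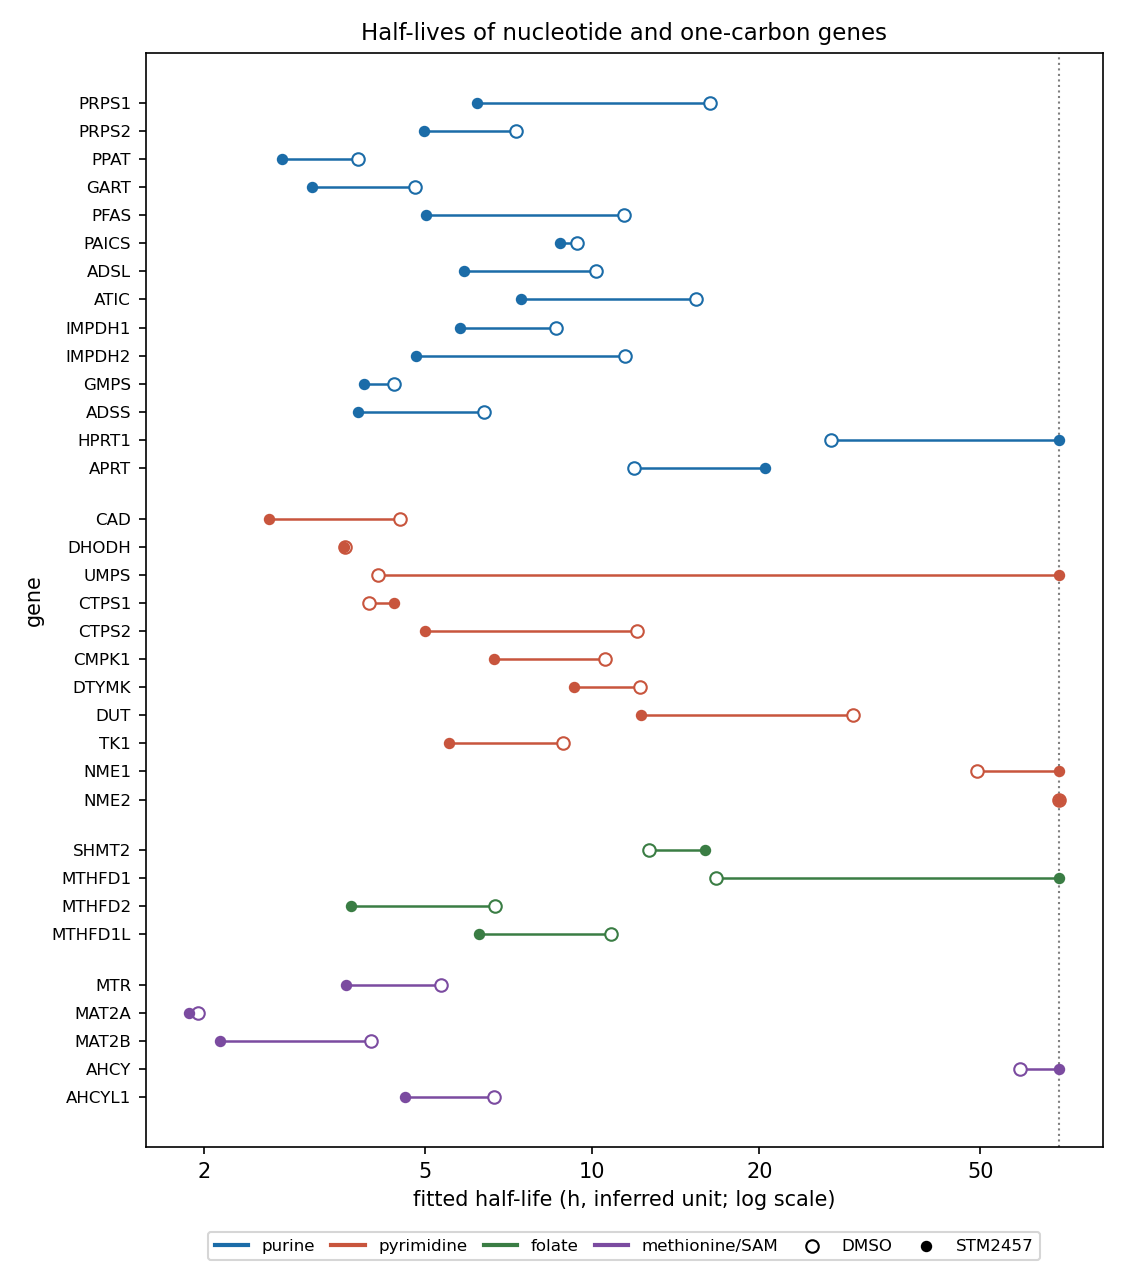
Fitted half-life of each of the 34 members in DMSO and STM2457 (hours, log axis), 1 point per gene and treatment, ordered by pathway; no error bars are drawn because the table holds no replicate values. Most STM2457 points lie left of their DMSO points, while those of UMPS, HPRT1, MTHFD1, NME1, NME2 and AHCY lie at the 69.3 h ceiling.

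Purine genes divided by route. All 12 genes of PRPP supply, de novo IMP synthesis and the AMP and GMP branches had a log2 half-life ratio below 0, with a median of -0.69. Of these 7 (58.3%) were shorter-lived, against 24.9% of all genes, and none was longer-lived, against 28.5%. Both salvage enzymes were longer-lived. Among these members the direction was thus opposite in the routes that build and reuse purines, but salvage rests on only 2 genes.

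PRPS1 makes the activated ribose PRPP on which purines are built. Its mRNA (ENSG00000147224.11, chromosome X, 107628424 to 107651026) had a fitted half-life of 16.3 h under DMSO and 6.20 h under STM2457, 2.63-fold shorter and the largest shortening of any member. Its paralog PRPS2 went from 7.29 to 4.96 h, within the rule. PRPS1 carried no coding DRACH motif distant from a junction.

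Of the 6 enzymes that assemble IMP, 4 were shorter-lived. PFAS, which catalyses an amidation step of the route, had a half-life of 11.4 h under DMSO and 5.02 h under STM2457 (2.27-fold shorter). ATIC, which completes IMP, went from 15.3 to 7.43 h (2.07-fold shorter). No error can be given for either value. ADSL, the adenylosuccinate lyase, went from 10.1 to 5.86 h, and GART, a trifunctional enzyme of the route, from 4.80 to 3.12 h. ADSL shares its 3′ end on the same strand with SGSM3, also in the table, so reads from the pair may have been split and its values are uncertain. PPAT, which commits PRPP to the pathway, was within the rule at 3.78 and 2.76 h. PAICS, a bifunctional enzyme of the route, moved least, with 9.38 h under DMSO and 8.75 h under STM2457.

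PPAT and PAICS are neighbours on chromosome 4, transcribed away from each other. The 136 bases between their RefSeq start sites (GRCh38.p14, chr4:56435616-56435751, plus strand) are shown because both genes start at their edges, with matches to the GC box GGGCGG, searched on both strands, in capitals.
PPAT and PAICS shared start region: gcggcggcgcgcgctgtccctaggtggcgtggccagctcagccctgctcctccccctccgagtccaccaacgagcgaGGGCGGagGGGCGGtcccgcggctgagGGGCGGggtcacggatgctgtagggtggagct
It holds 3 matches. GGGCGG or its complement occurs in 45.0% of the 35116 RefSeq start windows, which run from 250 bases before to 50 after a start. The pair had like log2 synthesis ratios, 0.22 for PPAT and 0.19 for PAICS, and unlike half-lives, 3.78 h and 9.38 h under DMSO.

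In the branch from IMP to GMP, IMPDH2, the main isoform of the rate-limiting dehydrogenase in dividing cells, had a half-life of 11.5 h under DMSO and 4.81 h under STM2457 (2.38-fold shorter). IMPDH1, the other isoform, went from 8.60 to 5.77 h and GMPS, the GMP synthetase, from 4.39 to 3.88 h, both within the rule. In the branch to AMP, ADSS, the adenylosuccinate synthase, went from 6.37 to 3.78 h (1.69-fold shorter). One member in each branch was therefore shorter-lived.

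The salvage enzyme HPRT1, which reuses hypoxanthine and guanine (ENSG00000165704.15, chromosome X, 134460153 to 134520513), had 26.9 h under DMSO and the ceiling of 69.3 h under STM2457, a 2.58-fold longer fitted value. A half-life at the ceiling marks the limit of the fit and not a measured duration. Among all genes 229 were at it under DMSO and 980 under STM2457, and among the members 1 and 6. APRT, which reuses adenine, stayed below the ceiling, at 11.9 h under DMSO and 20.5 h under STM2457 (1.72-fold longer). It was the only longer-lived member that did not end at the ceiling.

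Pyrimidine genes were mixed, with 5 shorter-lived, 1 longer-lived and 5 within the rule, and a median log2 half-life ratio of -0.39. The shorter-lived share was 45.5%, against 24.9% of all genes. The 3 genes of de novo UMP synthesis had 3 different outcomes. CAD, the multifunctional enzyme that opens the pathway, went from 4.51 to 2.61 h (1.72-fold shorter). DHODH, the mitochondrial dehydrogenase that follows, hardly moved, with 3.58 h under DMSO and 3.57 h under STM2457.

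UMPS, which makes UMP in the last steps, had the largest half-life ratio of the set. Its mRNA (ENSG00000114491.14, chromosome 3, 124730366 to 124749273, plus strand) had a fitted half-life of 4.11 h under DMSO and was at the 69.3 h ceiling under STM2457, a log2 ratio of 4.08 that was higher than that of 97.6% of the table. Its synthesis rate was 194 in DMSO and 116 in STM2457, 1.68-fold lower and the only member past the rule in that direction. UMPS is also the member with the longest coding part in one exon, 672 nt, and the 8 distant motifs counted above. Whether the motifs and the half-life are related was not tested.

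CTP synthases make CTP from UTP. CTPS2 had 12.0 h under DMSO and 4.99 h under STM2457 (2.41-fold shorter), whereas its paralog CTPS1 had 3.95 and 4.40 h, within the rule. CMPK1, the UMP and CMP kinase, went from 10.5 to 6.64 h (1.59-fold shorter). The paralogs thus lay far apart in DMSO and close together in STM2457.

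The 3 members grouped under dTTP supply and salvage all had ratios below 1. DUT, which removes dUTP and yields the dUMP used for thymidylate (ENSG00000128951.14, chromosome 15, 48331011 to 48343373), had a fitted half-life of 29.5 h under DMSO and 12.3 h under STM2457 (2.41-fold shorter). TK1, the thymidine kinase of dividing cells, went from 8.87 to 5.51 h (1.61-fold shorter). DTYMK, the thymidylate kinase, went from 12.2 to 9.26 h, within the rule. So 2 of these 3 members were shorter-lived. TYMS, the thymidylate synthase, is no member and was named after its values were seen. It had 18.6 h under DMSO and 21.5 h under STM2457, a ratio above 1 and within the rule.

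NME1 and NME2, nucleoside diphosphate kinases that charge nucleotides to triphosphates, were among the longest-lived mRNAs of the table. NME1 had 49.2 h under DMSO and the ceiling under STM2457, and NME2 was at the ceiling in both. Neither could be called longer-lived, since the ceiling lay less than 1.5-fold above its DMSO value. They are close paralogs, adjacent on chromosome 17 (51153536 to 51162428 and 51165435 to 51171747), and the read-through gene NME1-NME2 is also in the table, so reads may have been split among them and their values are uncertain.

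Folate genes had no common direction: 2 of 4 were shorter-lived, 1 was longer-lived and the median log2 half-life ratio was -0.23. Over all genes 24.9% were shorter-lived and 28.5% longer-lived, and 4 genes are few to set beside those shares. The shorter-lived pair act in mitochondria. MTHFD2, a dehydrogenase and cyclohydrolase, went from 6.69 to 3.68 h (1.82-fold), and MTHFD1L, which releases formate, from 10.8 to 6.24 h (1.73-fold). Their cytosolic counterpart MTHFD1 (ENSG00000100714.17, chromosome 14, 64388031 to 64463457) had 16.7 h under DMSO and was at the ceiling under STM2457, 4.16-fold longer. SHMT2, the mitochondrial enzyme that passes a carbon from serine to folate, had 12.7 and 16.0 h, within the rule. With 1 cytosolic gene measured, and SHMT1 absent, compartment and gene cannot be told apart.

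Of the methionine and SAM genes 1 of 5 (20%) was shorter-lived, near the 24.9% of all genes. None was longer-lived, and the median log2 half-life ratio was -0.53. MAT2A, the catalytic subunit of the SAM synthetase, was the shortest-lived member in both treatments, at 1.95 h under DMSO and 1.88 h under STM2457, a log2 ratio of -0.05. In DMSO its half-life was longer than that of only 11.6% of the table. Its synthesis rate was 310 in DMSO and 286 in STM2457, a log2 ratio of -0.12. MAT2A thus differed little between treatments in either rate, and no interval can be given for the difference. The 3′ end of MAT2A overlaps GGCX on the opposite strand, also in the table, and the sources used here do not say whether counting used strand.

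MAT2B, the regulatory subunit of the same enzyme, had a half-life of 3.99 h under DMSO and 2.14 h under STM2457 (1.87-fold shorter). The 2 subunits therefore lay on different sides of the rule. MTR, the cobalamin-dependent methionine synthase, went from 5.33 to 3.59 h, and AHCYL1, an AHCY-like protein known as a regulator of IP3 receptors, from 6.65 to 4.60 h. AHCY, which hydrolyses SAH (ENSG00000101444.13, chromosome 20, 34280268 to 34311802), had 59.0 h under DMSO and the ceiling under STM2457, also within the rule. From 59.0 h the ceiling left no room for a longer-lived call.

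Known regulators of MAT2A mRNA were also in the table except YTHDC1, a nuclear m6A reader. METTL16 had a half-life of 3.27 h under DMSO and 4.38 h under STM2457, and CPSF6, a subunit of the cleavage factor CFIm, 5.10 and 4.20 h, both within the rule. NUDT21, the other CFIm subunit of the list, went from 12.3 to 6.51 h and was shorter-lived. Of the methyltransferase that STM2457 inhibits, METTL3 had 4.00 and 3.51 h, METTL14 1.46 and 3.22 h, and WTAP 1.97 h and the ceiling. The compound acts on the METTL3 protein, so these mRNA values do not check the treatment.

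Fewer members passed the rule for synthesis than for half-life, which was also so over all genes. The log2 synthesis ratio was above 0 in 23 of 34 members and below 0 in 11, with a median of 0.21 against -0.06 for all genes. By the 1.5-fold rule 6 members were higher, where 12.6% of all genes were, and 1 was lower, where 13.2% were. The 6 were GART, MTHFD1L, DUT, NME1, NME2 and AHCY, and the lower one was UMPS. The class medians were 0.25 for purine, 0.03 for pyrimidine, 0.27 for folate and -0.11 for methionine and SAM genes.

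**Figure D3:**
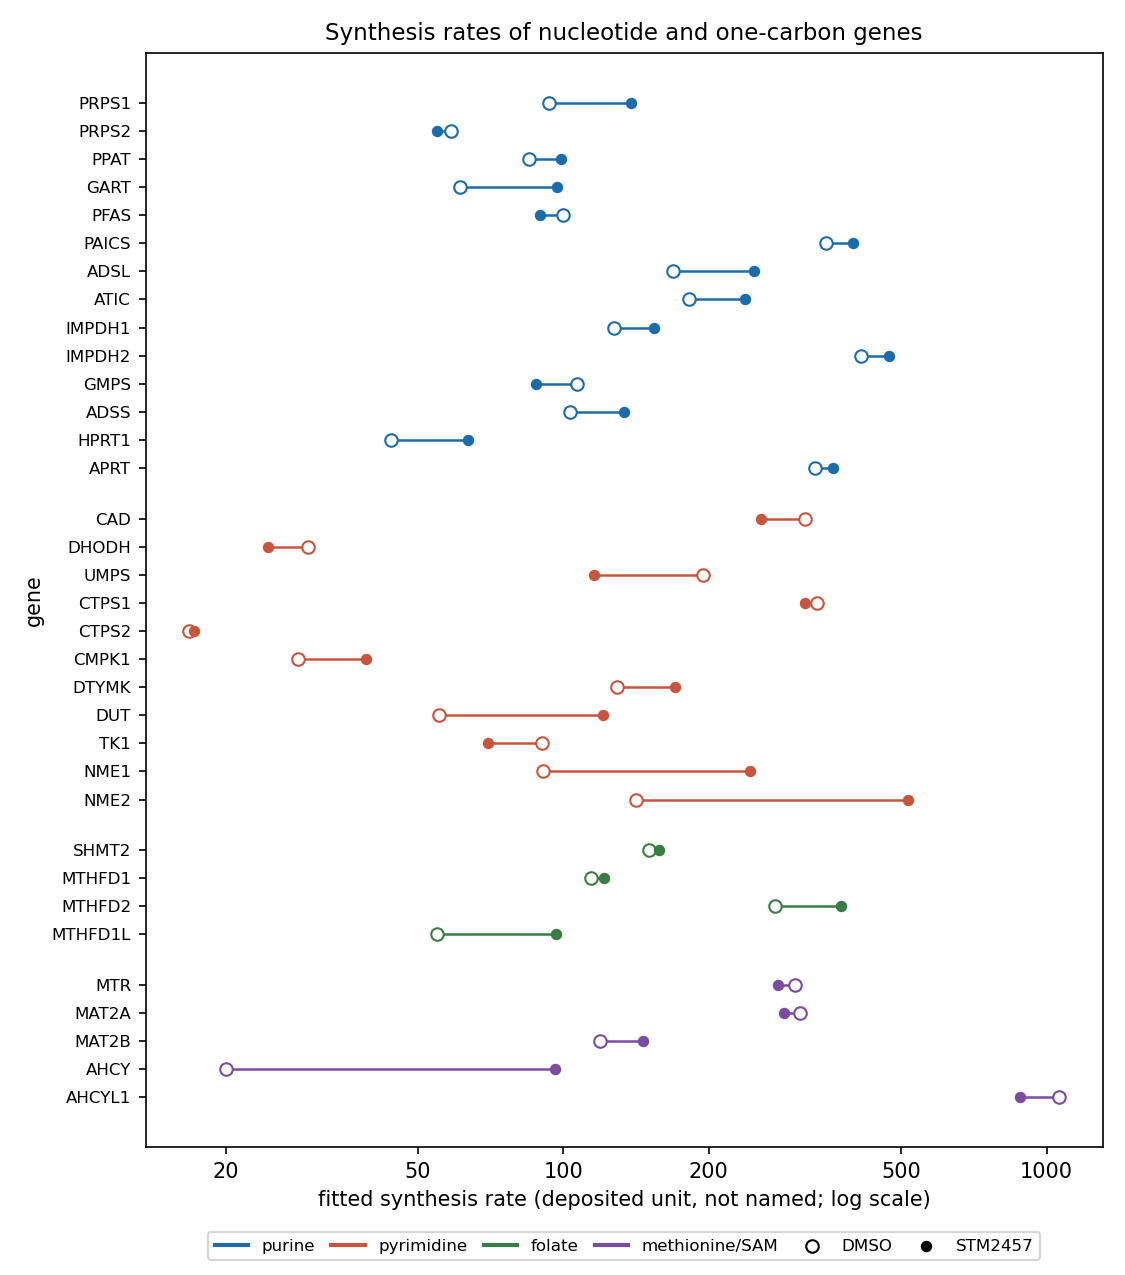
Fitted synthesis rate of each member in DMSO and STM2457 (units not named in the table, log axis), 1 point per gene and treatment, ordered by pathway. AHCY, NME2, NME1 and DUT show the widest gaps, with STM2457 above DMSO.

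Within the purine route, 11 of 14 genes had a log2 synthesis ratio above 0, of which GART alone passed the rule. PRPS1 had a synthesis rate of 93.5 with DMSO and 138 with STM2457 (1.47-fold higher), and ADSL 168 and 248 (1.47-fold higher). IMPDH2 had 412 and 472, ATIC 182 and 237, and ADSS 103 and 133. The ratio was below 0 in PRPS2, with 58.5 and 54.7, PFAS, with 99.7 and 89.3, and GMPS, with 107 and 87.8. Salvage did not stand apart here as it did in half-life, with a synthesis rate 1.45-fold higher for HPRT1 and 1.09-fold higher for APRT, at 332 and 361.

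The genes of de novo UMP synthesis all had a ratio below 0. CAD had a synthesis rate of 317 with DMSO and 256 with STM2457 and DHODH 29.7 and 24.5, both within the rule, and UMPS the values given above. TK1, whose product salvages thymidine, also lay below 0, with 90.5 and 69.9, whereas CMPK1, with 28.3 and 39.1, and DTYMK, with 129 and 170, lay above it. CTPS1, with 335 and 316, and CTPS2, with 16.8 and 17.2, were nearly level. All 4 folate genes lay above 0, from SHMT2 with 151 and 158 and MTHFD1 with 114 and 121 to MTHFD2 with 274 and 375 and MTHFD1L, the only one past the rule. Of the methionine and SAM genes MTR had 301 and 279, AHCYL1 1061 and 881, and MAT2B 119 and 146, all within the rule.

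The largest synthesis ratios belonged to the most stable mRNAs. AHCY had a synthesis rate of 20.1 in DMSO and 96.3 in STM2457 (4.80-fold higher), NME2 141 and 517 (3.66-fold), NME1 90.8 and 244 (2.69-fold) and DUT 55.3 and 121 (2.18-fold). All 4 had DMSO half-lives above 24 h, as did HPRT1, whose synthesis stayed within the rule at 1.45-fold higher. Of the 699 genes of the table with a DMSO half-life above 24 h and a synthesis ratio, 80.1% were higher by the same rule, with a median log2 synthesis ratio of 1.13, and of the 161 at the ceiling in both treatments 90.1% were. A higher fitted synthesis rate was therefore the usual value for mRNAs this stable, and what these values share with half-life in the fit was not tested.

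Of the 15 shorter-lived members 3 (20%), GART, MTHFD1L and DUT, had synthesis at least 1.5-fold higher, a share near the 21.4% among the 2243 shorter-lived genes with a synthesis ratio. By sign alone 12 (80.0%) had a log2 synthesis ratio above 0, where 67.0% of those genes did, and 9 of the 12 did not pass the rule. Both rates come from one fit per gene and treatment, so they are not independent measures. GART had a half-life 1.54-fold shorter and a synthesis rate of 61.2 in DMSO and 97.3 in STM2457 (1.59-fold higher). MTHFD1L had 1.73-fold and, for synthesis, 54.7 and 96.4 (1.76-fold higher).

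The level that a fit implies at steady state is its synthesis rate over its decay rate. By that measure GART and MTHFD1L had log2 ratios of 0.05 and 0.02, and DUT -0.14. Among the 15 shorter-lived members 7 (46.7%) had an implied level within 1.5-fold, where 28.8% of all shorter-lived genes did, a difference of a few genes that was not tested. PFAS (-1.34), CTPS2 (-1.24), CAD (-1.09), TK1 (-1.06) and IMPDH2 (-1.06) had the lowest implied log2 ratios, with synthesis within the rule. Over the set 16 members (47.1%) were within 1.5-fold, against 47% of all genes, 11 (32.4%) were lower, against 24.7%, and 7 (20.6%) were higher, against 28.3%. The share within the rule was thus that of the table, and the median log2 ratio of implied levels was -0.23 for the members and -0.05 for all genes. Measured mRNA levels were not analysed here.

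**Figure D4:**
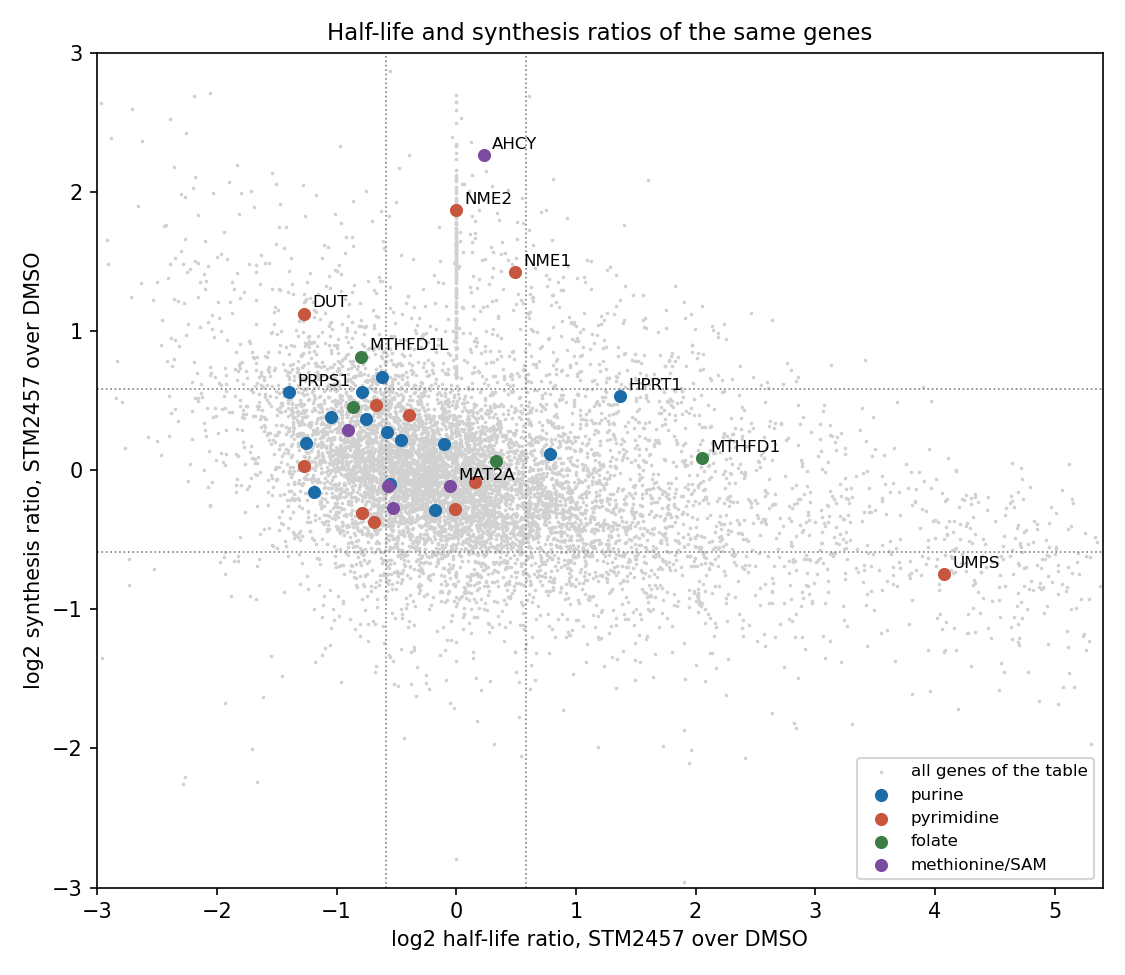
Log2 synthesis ratio against log2 half-life ratio, STM2457 over DMSO, for the members in colour by class and all other genes in grey, with lines at the 1.5-fold rule; 35 genes lie outside the axes. Most members sit left of 0 on the half-life axis, and UMPS lies far to the right and below 0 on the synthesis axis.

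The 7 members with a higher implied level were HPRT1, APRT, UMPS, NME1, NME2, MTHFD1 and AHCY. For each, the implied fold exceeded what could build up in 6 h of treatment, the 3 h before and 180 min of labelling. That bound lets decay stop and the fitted synthesis run from a DMSO steady state. All 7 had STM2457 half-lives of 20.5 h or more. From such a half-life any 1.5-fold higher implied level exceeds the bound by arithmetic. The share over all genes was not computed, so this is not given as a trait of the members. UMPS had an implied 10.1-fold against a bound of 1.60-fold, AHCY 5.64 against 1.34, and MTHFD1 4.42 against 1.27. The implied folds of these genes are thus steady-state values that the treatment was too short to reach, whatever their half-life. The lower implied levels are steady-state values too. At the fitted rates, PFAS would be at 0.66-fold of DMSO after 6 h, against an implied 0.39. The levels were 0.67 against 0.42 for CTPS2 and 0.58 against 0.47 for CAD. They were 0.72 against 0.48 for TK1 and 0.70 against 0.48 for IMPDH2. The bound and the levels after 6 h rest on hours as the unit. They also assume that the compound stayed on the cells during labelling, which the labels do not state.

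Distant coding DRACH motifs were scarce in the members. No such motif was found in 19 of 34 (55.9%), against 24.8% of the 8527 genes with a coding transcript, and none had 10 or more, against 25.4%. The median was 0 in the members and 3 in all genes. Coding length was alike, with medians of 1404 and 1389 nt, but the longest coding part within one exon was shorter, 199.5 against 267 nt. These counts leave out 3′ UTRs. There, distant motifs in members without a coding one ranged from 0 in ADSL and IMPDH2 to 135 in GMPS. MTHFD2 had 57 and MAT2A 27. Shares over all genes were not computed for 3′ UTRs.

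Members with and without a distant coding motif had like half-life ratios, and 3′ UTR motifs were not part of this comparison. Of the 19 without, 7 were shorter-lived and 2 longer-lived, with a median log2 ratio of -0.53. Of the 15 with at least 1, 8 were shorter-lived and 2 longer-lived, with a median of -0.62. Over all genes without one, 694 of 2115 were shorter-lived, 464 were longer-lived and the median was -0.22. Over all genes with at least 1, 1428 of 6412 were shorter-lived, 1956 were longer-lived and the median was 0.04. The members with a motif thus had a lower median than all genes with one, but the 2 groups differed in motif number. Of the 15 members 14 held 1 to 4 such motifs, against 3008 of the 6412 genes, so the medians are not like for like. The difference was not tested. PFAS with 4 motifs, CAD with 3 and TK1 with 3 were all shorter-lived, and UMPS with 8 was longer-lived.

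**Figure D5:**
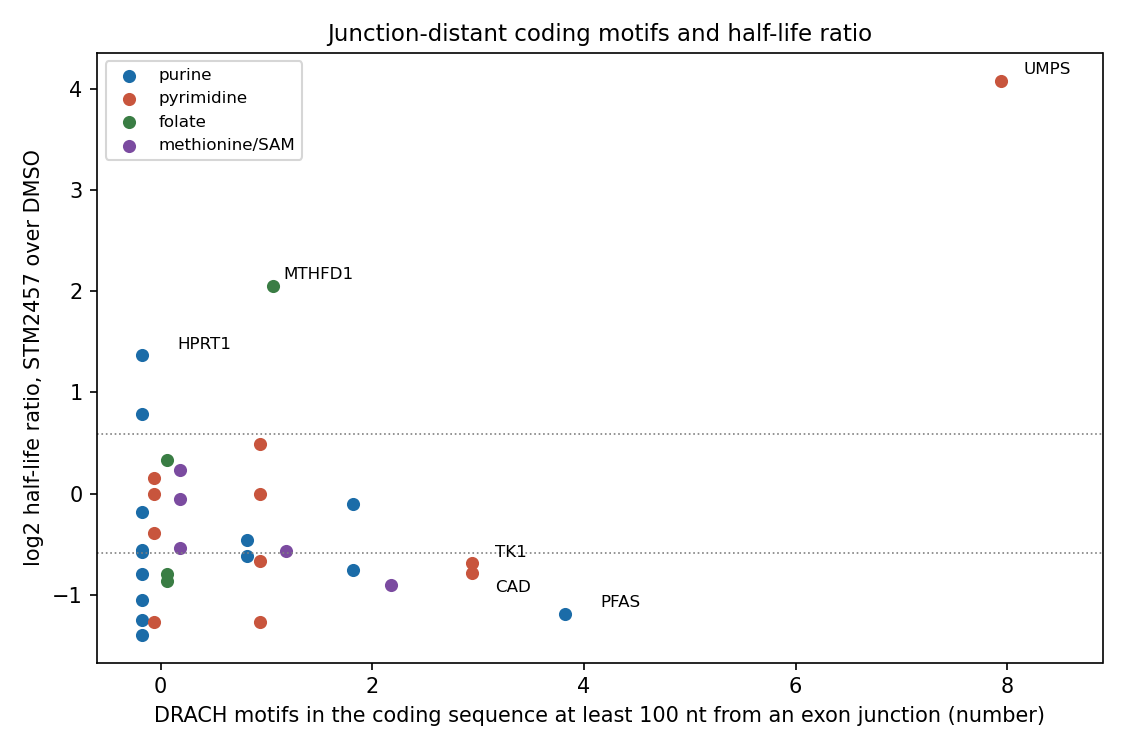
Log2 half-life ratio of each member against its number of coding DRACH motifs at least 100 nt from an exon junction, coloured by class and shifted slightly sideways by class; dotted lines mark the 1.5-fold rule. The 19 members at 0 motifs run from -1.39 to 1.37, and UMPS stands alone at 8.

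Several genes of these pathways are known targets of MYC, whose E-box is CACGTG, a palindrome that reads alike on both strands. Of 31 members with a RefSeq start window 7 (22.6%) held it, where 13.5% of 7053 table genes with a window and 7.26% of all windows did. They were PPAT, PAICS, ATIC, DHODH, NME1, MTHFD1 and MTHFD1L. The windows of PPAT and PAICS overlap and share 1 match, so they count one site. Of these 7 genes 6 had a log2 synthesis ratio above 0. With the PPAT and PAICS pair taken once, 5 lay above 0 and DHODH alone lay below it. The ratio was above 0 in 23 of 34 members (67.6%) and in 45.3% of all genes.

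Other genes of the same pathways, listed by function, were spread about evenly in both directions. Of 94 listed, 56 were in the table, with 16 shorter-lived, 14 longer-lived and 26 within the rule, and a median log2 half-life ratio of -0.00. The difference between these genes and the members was not tested. Among other purine genes 5 of 14 were shorter-lived and 3 longer-lived, and the median was -0.43. The 3 include NT5C3A, a pyrimidine nucleotidase that was listed here. AMPD2, an AMP deaminase, went from 5.58 to 2.65 h (2.10-fold shorter), and PNP, the purine nucleoside phosphorylase, from 5.13 to 10.9 h (2.12-fold longer). PNP, ADK and ADA all act in purine salvage or breakdown, and the latter pair, named after their values were seen, had ratios below 1, with 12.3 and 10.3 h for ADK and 8.59 and 6.04 h for ADA, both within the rule.

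Among other pyrimidine genes 5 of 19 were shorter-lived and 4 longer-lived, with a median of -0.07. The 4 include DGUOK, a purine deoxynucleoside kinase that was listed here. DCTPP1, a dCTP pyrophosphatase, went from 9.32 to 5.13 h, and NME6, a relative of NME1, from 2.58 to 4.13 h. Among other folate and serine genes 3 of 13 moved past the rule in each direction, with a median of 0.13. FPGS, which adds glutamates to folate, went from 18.2 to 3.49 h (5.23-fold shorter), and MTFMT, the mitochondrial methionyl-tRNA formyltransferase, from 5.07 to 7.20 h, within the rule. Among other methionine and SAM genes 3 of 10 were shorter-lived and 4 longer-lived, with a median of 0.13. AMD1, which commits SAM to polyamine synthesis, went from 1.76 to 6.49 h (3.68-fold longer), and APIP, an enzyme of methionine salvage, from 23.8 to 8.49 h (2.80-fold shorter).

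Gene overlaps bear on a few other members. The 3′ ends of ADSS and AHCY overlap a non-member on the same strand, and those of MTHFD1, MTHFD2, MTHFD1L and SHMT2 overlap one on the opposite strand. Since the libraries read 3′ ends and the counting is not given, how far these overlaps touch the values was not tested.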

How the data were processed

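SLAM-seq libraries of 18 HEK293T samples were grouped by treatment, DMSO or STM2457, and s4U labelling, per the labels. Per the labels' protocols, RNA was alkylated with iodoacetamide and sequenced as 3′ mRNA libraries with a QuantSeq forward kit. The submitters' processing notes list STAR 2.7.8a, FastQC 0.11.9 and the build GRCh38.p12. The kinetics software, gene annotation, filters and the libraries behind each fit were not given in the sources used here. For every gene the authors deposited a fitted half-life and synthesis rate under each treatment, with log2 ratios. The deposited log2 half-life ratios differed from those recomputed by at most 1.27e-14. No time unit stands in the file headers, and hours were inferred because the largest value, 69.3, is ln 2 over a round decay rate. Values within 1e-06 of it were taken as at the ceiling. Synthesis was listed at 0 in STM2457 for 3 genes, which have no synthesis ratio.

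From the table, genes past 1.5-fold were counted, medians were taken over members and all genes, and the implied level was the synthesis rate times the half-life. No test was made, since there is 1 value per treatment, and intervals could not be given. Members and lists were chosen with earlier results of these data known. The text names all members found and the regulator lists. It also names the highest and lowest log2 half-life ratio of each list of other pathway genes with both half-lives between 0.5 and 24 h. A few further genes were named for the reasons given beside them. Alternatives changed the size rule, the range of half-lives, members at the ceiling, centring, NME1 and NME2, and the summary. Coding and UTR sequences came from GENCODE release 29, using the transcript with the longest coding sequence, and start windows from RefSeq, matched by symbol (ADSS as ADSS2). The counting was tested on simulated data. Python 3.11.15, NumPy 2.4.6, pandas 2.3.3 and Matplotlib 3.10.9 were used.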

Additional observations from a re-analysis of the deposited data

How the results depend on the processing

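Of 70 alternatives over 14 counts and medians, 45 stayed within 1.5 times (counts) or 0.1 (log2 medians) of the value given. Another 25 moved further, and none reversed a called value. Signs did change for the folate half-life value and for the pyrimidine and the methionine and SAM synthesis values, all within the rule. With a 2-fold rule 6 members were shorter-lived in place of 15, and none had lower synthesis. Among the 27 members with both half-lives between 0.5 and 24 h, 1 was longer-lived in place of 4, 2 had higher synthesis in place of 6, and 0 had lower synthesis. Among the 28 below the ceiling in both treatments the counts were 1, 3 and 0. Between 0.5 and 24 h the median log2 half-life ratio was -0.67 for pyrimidine and -0.79 for folate genes, and below the ceiling -0.68 and -0.79. Without NME1 and NME2 it was -0.67 for pyrimidine genes. Means in place of medians gave -0.24 for all members, -0.48 for purine, -0.032 for pyrimidine, 0.18 for folate and -0.37 for methionine and SAM genes, so that the folate value changed sign. For log2 synthesis, the pyrimidine median was -0.085 in the range of 0.5 to 24 h and also without NME1 and NME2, against 0.03 for all members of the class. The folate median was 0.45 in that range and below the ceiling. Means were 0.31 for all members, 0.32 for pyrimidine and 0.41 for methionine and SAM genes, whose median was -0.11. The cause was not tested. No paired analysis was possible because the table holds 1 value per treatment with no replicate. Depth is unknown, and a value at the ceiling gives no upper limit to a half-life.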
